A study of Homo sapiens with 8 samples.

Results

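The caveolin and cavin genes were followed in SKBR3, an established human breast cancer cell line with amplified ERBB2 (HER2). The 6 genes were CAV1, CAV2, CAVIN1, CAVIN2, CAVIN3 and EHD2, taken by gene symbol, and each matched 1 row of the 30434 genes in the deposited count table. RNA sequencing covered 4 control libraries, whose genotype is labelled WT, and 4 libraries labelled FOXA1 knockdown. The knockdown was a stable SKBR3 line made with lentiviruses that carried short hairpin RNAs against FOXA1, a forkhead transcription factor of luminal breast cells, and all cells grew in the same serum-containing medium. The labels do not say whether the controls carried a control vector, whether the knockdown line was 1 clone, or whether replicates were separate cultures, so p-values measure the spread between these libraries, which may be technical.

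Caveolae are small flask-shaped pits of the plasma membrane. Caveolins are hairpin proteins that sit in the inner leaflet of the membrane, and cavins form a coat around the pit. In cells outside muscle, CAV1 and CAVIN1 are both needed for caveolae to form. CAV2 joins CAV1 in mixed complexes and depends on it to reach the cell surface, CAVIN2 helps to bend the membrane, CAVIN3 takes part in caveola traffic, and EHD2 is an ATPase that sits at the neck and holds the pit at the surface. In the breast, caveolae are abundant in adipocytes, endothelium, fibroblasts and myoepithelial cells and sparse in luminal cells.

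Library totals ran from 19087878 to 23786684 counts. FOXA1 itself stood at 192 ± 1.65 CPM in the control libraries and 3.96 ± 0.34 CPM in the knockdown libraries (SD, n = 4 each), which is 2.06% of control, where CPM is counts per 1000000 scaled counts of a library. The 8 luminal epithelial markers were present in both groups but moved in different directions, 4 called higher and 3 lower, and their summed level was 17014 to 18967 CPM in control and 11496 to 12392 CPM in knockdown. EPCAM, KRT8 and KRT18 stood at 179, 4519 and 2312 CPM in control and 226, 5619 and 3457 CPM in knockdown, whereas KRT19, ERBB2 and GRB7 stood at 2645, 7308 and 363 CPM in control and 723, 1340 and 125 CPM in knockdown. Most of the transcriptome differed between the groups: 77.1% of the 16430 tested genes had an adjusted p under 0.05 in edgeR's quasi-likelihood test with Benjamini-Hochberg adjustment, and for 72% the 2 groups had no overlap in CPM. The median log2 change, knockdown minus control, of all tested genes was 0.02.

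Of the 6 genes, 4 had enough counts to be tested (CAV1, CAV2, CAVIN1 and EHD2), and 2 did not (CAVIN2 and CAVIN3). CAV1 and CAVIN1 rose, EHD2 fell, and CAV2 did not pass the threshold. These 2 rises and 1 fall stand beside a background of 39.4% of tested genes called higher and 37.7% called lower, so the number of calls does not set these genes apart. CAVIN1 and EHD2 changed by at least 2-fold, beside 14.9% of tested genes at least 2-fold higher and 13.4% at least 2-fold lower.

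RefSeq start windows (250 bases before to 50 after a gene's start, GRCh38.p14) matched CAV1, CAV2, CAVIN2 and EHD2, which is 4 of the 6 genes, and did not match CAVIN1 or CAVIN3. The bases of a window that precede its first exonic base are printed for CAV1, which rose, and for EHD2, which fell, so that the start regions of genes that moved in opposite directions can be read side by side; capitals mark each GGGCGG (GC box, either strand). For CAV1 this is chr7:116526112-116526276, before a start that lies inside the gene, downstream of its first annotated exon, and for EHD2 it is chr19:47713172-47713342, both on the plus strand and written 5′ to 3′.
CAV1: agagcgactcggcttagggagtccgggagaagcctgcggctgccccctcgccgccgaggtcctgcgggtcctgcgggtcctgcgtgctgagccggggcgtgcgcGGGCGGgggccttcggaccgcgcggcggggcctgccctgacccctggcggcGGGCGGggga
EHD2: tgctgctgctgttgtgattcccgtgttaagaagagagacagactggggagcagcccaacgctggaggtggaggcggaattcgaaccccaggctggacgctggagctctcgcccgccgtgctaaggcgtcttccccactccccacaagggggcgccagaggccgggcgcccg
The printed stretches held 2 GC boxes for CAV1 and none for EHD2, but the full windows did not divide the genes in this way. The 3 full windows of CAV1 were 62.3, 61.7 and 71% G or C with 3, 3 and 2 GC boxes, and the EHD2 window was 71% G or C with 1 GC box. Over the full 300-base windows, 4 other motifs were searched on both strands: the forkhead letters TGTTTAC, the AP-1 letters TGACTCA, the TEAD letters GGAATG and the TATA letters TATAAA. None of the 7 windows of CAV1, CAV2, CAVIN2 and EHD2 held the forkhead, AP-1 or TATA letters, and of the 7 only the CAVIN2 window held the TEAD letters. Among all 35116 RefSeq windows of this length, 3.42% held the forkhead letters, 4.95% the AP-1, 14% the TEAD and 11.5% the TATA letters, and 45% held the GC box. A match or its absence describes these letters in these windows only.

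CAV1 (ENSG00000105974.12, chromosome 7, 116524785 to 116561184, plus strand, GENCODE 29 on GRCh38) was the most abundant of the 6 genes in control per length of transcript. Its level was 23.7, 24.2, 23.7 and 23.1 CPM across control replicates 1 to 4, and 33.3, 31.5, 27.2 and 30.5 CPM in knockdown replicates 1 to 4. Every knockdown library lay above every control library, and knockdown replicate 3 was the lowest of its group. The mean rose from 23.7 ± 0.45 to 30.7 ± 2.54 CPM (SD, n = 4 each), 1.29-fold. The log2 change was 0.37 (SE 0.0624), with an edgeR adjusted p of 2.26e-06, and the exact two-sided permutation p was 0.0286, the smallest that 4 against 4 can give. The change was small: a test against a 2-fold change did not call it (adjusted p 1 in edgeR's glmTreat).

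CAV2 (ENSG00000105971.15, chromosome 7, 116287380 to 116508541, plus strand) lies next to CAV1 and was far less abundant. It stood at 4.58, 4.4, 3.42 and 4.61 CPM across control replicates 1 to 4, and at 3.91, 5.04, 4.58 and 4.63 CPM in knockdown replicates 1 to 4. The groups overlapped, with control replicate 3 lowest of all 8. The means were 4.25 CPM ± 0.564 and 4.54 CPM ± 0.467 (SD, n = 4 each), a log2 change of 0.09 (SE 0.127) that was not past the threshold (edgeR adjusted p 0.503). The 95% interval of the fold from limma voom ran from 0.888 to 1.28, so a change of that size in either direction is compatible with these libraries. Without control replicate 3 the log2 change was -0.00202 (edgeR adjusted p 0.989).

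CAVIN1 (ENSG00000177469.13, chromosome 17, 42402452 to 42423517, minus strand), which encodes the coat protein also called PTRF, rose most. Control replicates 1 to 4 had 8.7, 10.1, 11 and 9.57 CPM, and knockdown replicates 1 to 4 had 32.3, 33.3, 32.8 and 35.8 CPM. The lowest knockdown library was well above the highest control. The mean went from 9.83 ± 0.949 to 33.5 ± 1.57 CPM (SD, n = 4 each), 3.41-fold, with a log2 change of 1.77 (SE 0.0773), an edgeR adjusted p of 3.45e-18 and an exact two-sided permutation p of 0.0286.

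The other cavins were at the limit of detection in every library. CAVIN2 (ENSG00000168497.5, chromosome 2, 191834302 to 191847255) was counted 1, 1, 0 and 1 times in the control libraries (replicates 1 to 4) and 0 times in each knockdown library. CAVIN3 (ENSG00000170955.10, chromosome 11, 6318946 to 6320647) had 0, 0, 1 and 1 counts in control and 0, 1, 3 and 1 in knockdown. No library exceeded 3 counts for either gene, the floor used for an undetected gene, which corresponds to between 0.123 and 0.153 CPM in these libraries and covers counting error only, so no fold is given. CAVIN3 also overlaps a gene on the opposite strand (AC068733.3, mean of 5.125 counts) over 557 exonic bases, and its few counts are uncertain.

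EHD2 (ENSG00000024422.12, chromosome 19, 47713343 to 47743134, plus strand) went the other way. Its level was 15.7, 15.9, 15.9 and 16.5 CPM across control replicates 1 to 4, and 4, 3.77, 3.56 and 4.03 CPM in knockdown replicates 1 to 4. No library of one group came near the other. The mean fell from 16 ± 0.357 to 3.84 ± 0.215 CPM (SD, n = 4 each), leaving 24% of the control mean. The log2 change was -2.06 (SE 0.0435), with an edgeR adjusted p of 1.4e-17 and an exact two-sided permutation p of 0.0286.

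**Figure D1:**
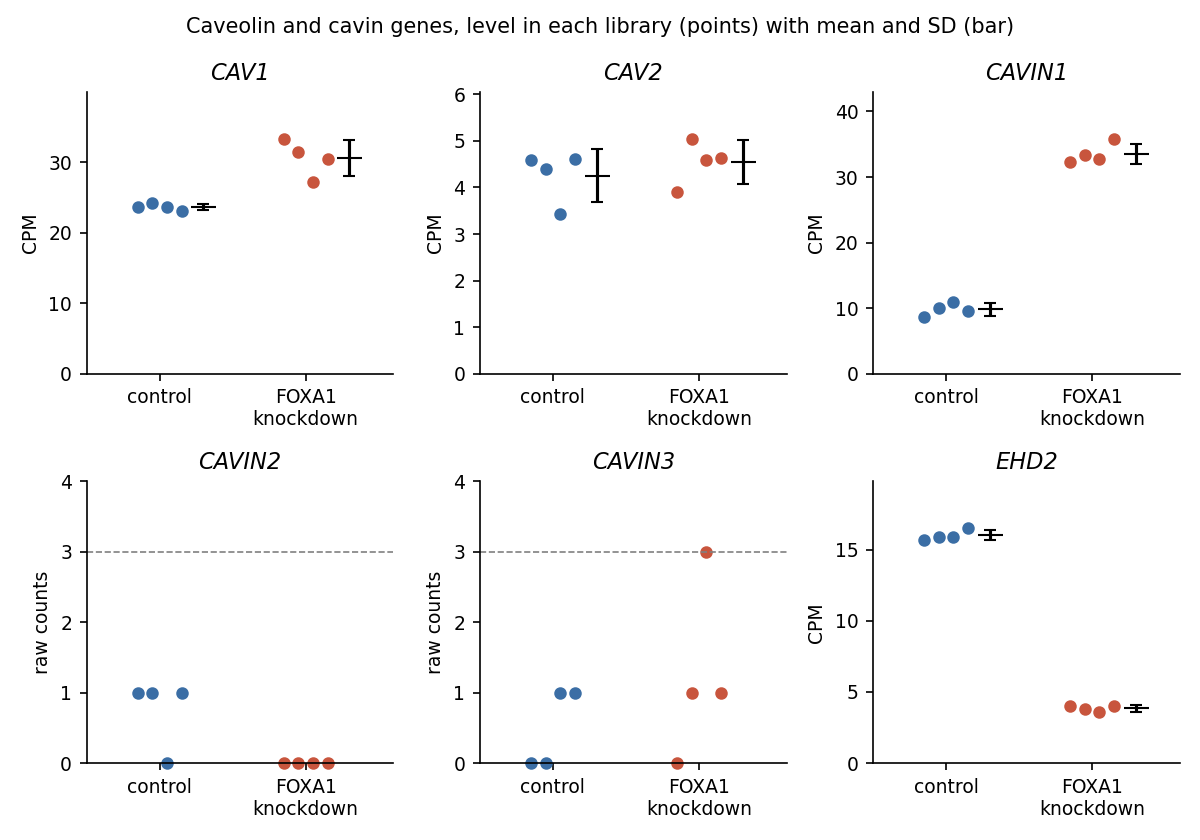
Level of each gene in each library, with CPM on the vertical axis for CAV1, CAV2, CAVIN1 and EHD2 and raw counts for CAVIN2 and CAVIN3. Points are single libraries (blue control, red FOXA1 knockdown), bars are the mean and SD of 4, and the dashed line marks 3 counts; CAVIN1 and EHD2 separate widely in opposite directions, CAV1 separates narrowly and CAV2 overlaps.

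How much sequence each gene shares with others was read from the annotation, since no reads were used here. Stretches of 31 bases were compared between the annotated transcripts of each gene and those of all other genes in GENCODE 29. No stretch of CAV1 occurred in another gene, and 3.45% of those of CAV2, 2.71% of CAVIN1, 4.76% of EHD2, 6.38% of CAVIN2 and 30.1% of CAVIN3 did. CAV2 overlaps AC002066.1 on the opposite strand over 76 exonic bases, and that gene averaged 0.25 counts per library.

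Levels of different genes were compared per kilobase of merged exons (CPM per kb). In control the order was CAV1 at 5.81 ± 0.11, EHD2 at 4.08 ± 0.091, CAVIN1 at 2.57 ± 0.248 and CAV2 at 0.614 ± 0.0814 CPM per kb (SD, n = 4 each), and no neighbours in this order overlapped. In knockdown the order was CAVIN1 at 8.76 ± 0.411, CAV1 at 7.51 ± 0.622, EHD2 at 0.978 ± 0.0549 and CAV2 at 0.655 ± 0.0674 CPM per kb, again without overlap between neighbours. The knockdown order depends on the length used: with the longest basic protein-coding transcript, an alternative chosen after seeing the data, CAV1 was 9.58 and CAVIN1 8.76 CPM per kb, and CAV2 was 1.38 and EHD2 1.07 CPM per kb. Among 13278 tested protein-coding genes ranked by CPM per kb of merged exons, CAVIN1 moved from rank 8447 in control to 4573 in knockdown and EHD2 from 7254 to 10296. CAV1 moved from rank 6127 to 5068, and CAV2 stood at 10673 and 10838. In knockdown CAVIN1 and CAV1 thus lay above 65.6% and 61.8% of these genes, and EHD2 and CAV2 above 22.5% and 18.4%.

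Whether these genes changed by different amounts was tested on their count ratio within each library, over 6 pairs with Benjamini-Hochberg adjustment. The ratio of CAV1 to CAVIN1 was 2.72, 2.41, 2.16 and 2.42 across control replicates 1 to 4, against 1.03, 0.948, 0.831 and 0.853 across knockdown replicates 1 to 4. CAV1 thus went from more counts than CAVIN1 in every control library to about as many in knockdown. The log2 ratio changed by -1.40 (SE 0.0986; exact two-sided permutation p = 0.0286, adjusted p = 0.0343). CAVIN1 and EHD2 moved apart most: their ratio went from 0.614 ± 0.0596 to 8.75 ± 0.478 (SD, n = 4 each), a log2 change of 3.83 (SE 0.0797; exact permutation, adjusted p = 0.0343). The ratio of CAV1 to EHD2 rose from 1.48 ± 0.0546 to 7.98 ± 0.425 (exact permutation, adjusted p = 0.0343). For the 2 caveolins the ratio of CAV1 to CAV2 was 5.66 ± 0.88 in control and 6.83 ± 1.15 in knockdown (SD, n = 4 each), the libraries overlapped, and a different change of the caveolins was not shown (log2 change 0.27, SE 0.156; exact permutation, adjusted p = 0.143). The pairs of CAV2 with CAVIN1 and with EHD2 both differed (exact permutation, adjusted p = 0.0343 for each). Every pair that differed had the smallest permutation p that 4 against 4 can give, 0.0286, so these p-values do not rank the pairs. The 6 pairs reuse the same 4 genes and are not independent. CAV1 and CAVIN1 were higher and EHD2 lower in every knockdown library, so their ratios to EHD2 had to separate.

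**Figure D2:**
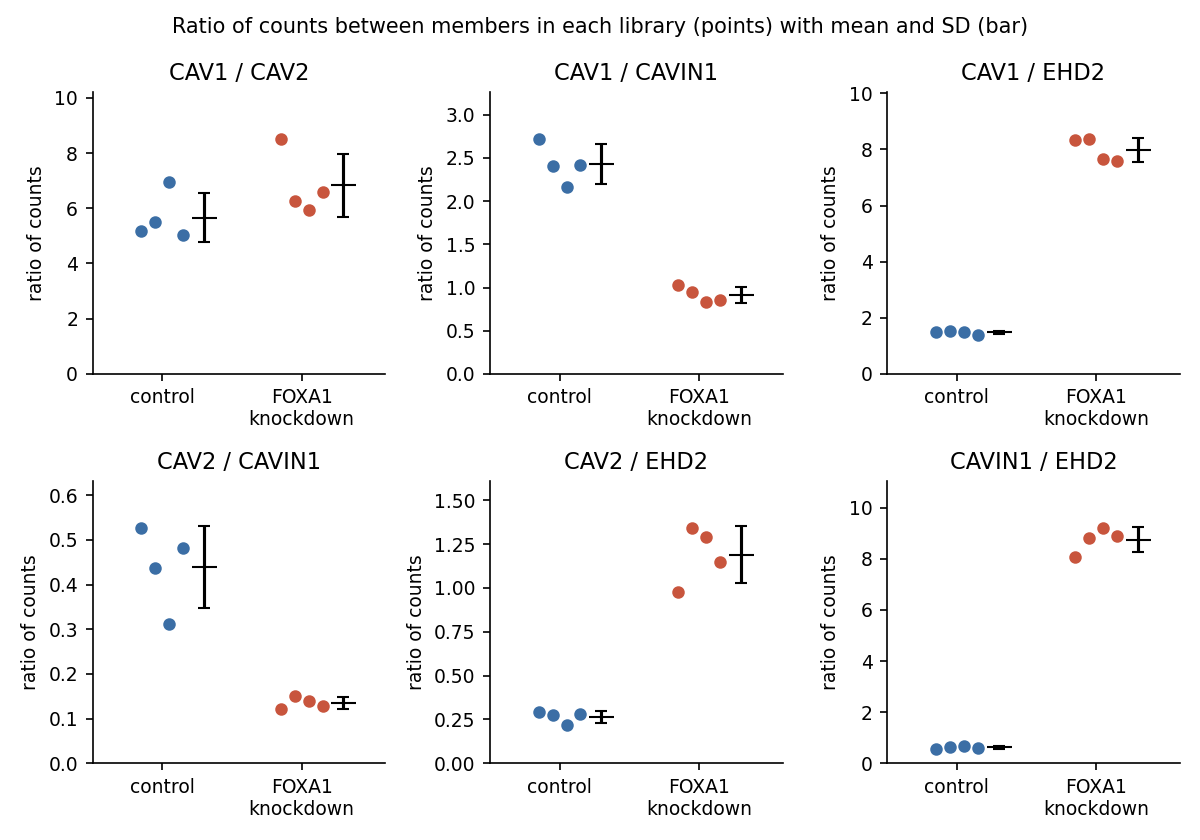
Ratio of raw counts between each pair of tested genes, on a linear vertical axis from 0, in each library (points, blue control and red FOXA1 knockdown) with the mean and SD of 4 (bars). The groups overlap for CAV1 over CAV2 and are apart in the other 5 pairs, with CAVIN1 over EHD2 going from 0.614 to 8.75.

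Each of the 4 tested genes was set beside the 10 tested genes nearest on each side. The background for the counts of called neighbours is 39.4% of all tested genes called higher and 37.7% called lower. CAVIN1 rose in a stretch where most genes fell: of its 20 neighbours, 13 were called lower and 2 higher by edgeR, their median log2 change was -0.47, and the highest of them was 0.34. The gene that flanks it on the side of lower coordinates, the transcription factor gene STAT3, fell from 499 ± 11.4 to 99.9 ± 5.22 CPM (SD, n = 4 each; log2 change -2.32). EHD2 fell below all 20 of its neighbours, of which 9 were called higher and 5 lower, with a median of 0.17 and a lowest value of -0.85. CAV1 and CAV2 share most of their neighbours, which were mixed, with 11 called higher and 5 lower for CAV1 and a range from -1.49 to 6.50 on the log2 scale. On the far side of CAV1, MET, the receptor for hepatocyte growth factor, rose from 48.8 ± 2.22 to 120 ± 1.65 CPM (SD, n = 4 each; log2 change 1.30). On the far side of CAV2, TES had a log2 change of 0.05 and was not past the threshold (edgeR adjusted p 0.181). With the median of the 50 nearest tested genes taken out as an offset, the log2 changes were 0.36 for CAV1, 0.08 for CAV2, 1.94 for CAVIN1 and -2.12 for EHD2. The gene on the other side of CAVIN1, ATP6V0A1, had a log2 change of -0.40. Those on the 2 sides of EHD2, ENSG00000278999.1 and NOP53, had log2 changes of 0.04 and 0.40. STAT3, MET and TES were named after their values were seen.

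The proteins that work with caveolins and cavins were taken as a list of 15 genes, of which 14 were tested and CAV3 was not analysed here. All 14 passed the threshold, 9 higher and 5 lower, beside 77.1% of all tested genes, and leaving out single libraries gave between 12 and 14 calls. The median log2 change of the list was 0.32, against 0.02 over all tested genes. PACSIN3, an F-BAR protein that shapes caveolae, had 28, 26.6, 31.2 and 25.7 CPM across control replicates 1 to 4, and 56.2, 55, 57.5 and 55.8 CPM in knockdown replicates 1 to 4. The groups did not overlap, and the log2 change was 1.01 (SE 0.0621; edgeR adjusted p 4.68e-15). ROR1, a receptor-like membrane protein that binds CAV1 and CAVIN1, was rare but rose from 0.673 ± 0.225 to 1.61 ± 0.36 CPM (SD, n = 4 each; log2 change 1.27, edgeR adjusted p 5.21e-05).

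The close relatives of EHD2 did not share one direction. EHD1, an ATPase of endocytic recycling and the most abundant gene of the list, fell from 226 ± 11.8 to 121 ± 3.14 CPM (SD, n = 4 each; log2 change -0.90, edgeR adjusted p 6.83e-17). EHD4 fell (log2 change -0.48, where the median of its 50 nearest tested genes was -0.56), whereas EHD3 rose from 2.34 ± 0.303 to 3.91 ± 0.364 CPM (log2 change 0.74). With the regional offset EHD1 was at -0.53 and still called, and 11 of the 14 listed genes were called, 7 higher and 4 lower. The F-BAR genes were likewise divided, with PACSIN2 at -0.50 and PACSIN1 at 0.23 on the log2 scale. Among the dynamins, which cut membrane necks, DNM2 fell from 132 ± 8.41 to 96 ± 4.79 CPM (log2 change -0.46), and the scarcer DNM1 and DNM3 rose (0.41 and 0.65). FLOT1 and FLOT2, flotillins of membrane microdomains outside caveolae, went in opposite directions, with log2 changes of -0.83 and 0.49. CAVIN4, the cavin of muscle, had between 6 and 10 counts in control libraries and between 10 and 17 in knockdown libraries (log2 change 0.76, edgeR adjusted p 0.0296).

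The list of caveolin kinases and turnover genes had 7 tested members, of which 4 were called higher and 2 lower, beside 39.4% and 37.7% of all tested genes, with a median log2 change of 0.15 against 0.02 over all of them. That share of calls is near the background. The kinases that phosphorylate CAV1 on tyrosine held the largest changes. FYN had 4.63, 4.63, 5.56 and 5.26 CPM across control replicates 1 to 4, and 30.8, 31.8, 31.5 and 31.9 CPM in knockdown replicates 1 to 4. All knockdown libraries were above all controls, with a log2 change of 2.65 (SE 0.0673; edgeR adjusted p 2.35e-21). SRC rose from 53.6 ± 1.86 to 158 ± 8.19 CPM (SD, n = 4 each; log2 change 1.56, edgeR adjusted p 5.16e-21). YES1 went from 96.3 ± 7.88 to 112 ± 5.17 CPM (log2 change 0.22), and ABL1 was not past the threshold (log2 change 0.04, edgeR adjusted p 0.441). VCP, an ATPase that extracts ubiquitinated proteins, fell from 414 ± 13.1 to 303 ± 10.5 CPM (log2 change -0.45), and its cofactor gene UBXN6 had a log2 change of -0.31. The remaining turnover gene, ZNRF1, went from 31.4 ± 2.21 to 34.7 ± 0.543 CPM. It was called higher (log2 change 0.15, edgeR adjusted p 0.0143), though its groups overlapped. With the regional offset 3 of the 7 were called, all higher, and the signs of YES1 (-0.0721) and VCP (0.0731) turned, neither past the threshold.

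**Figure D3:**
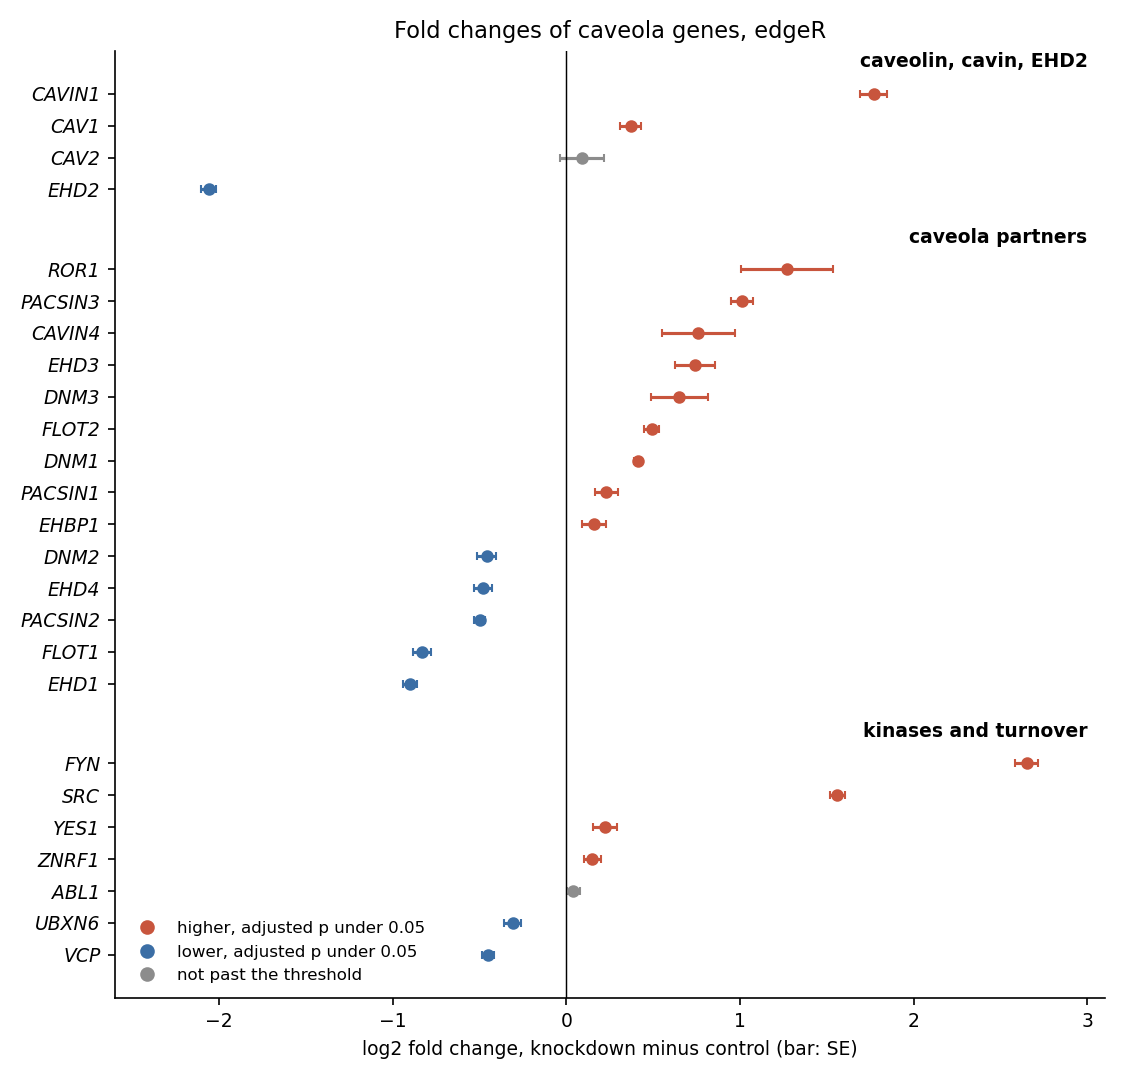
Log2 fold change, knockdown minus control (horizontal axis), with its SE (bar) for the tested caveolin, cavin and EHD2 genes, the caveola partners and the caveolin kinase and turnover genes. Red and blue points passed an adjusted p of 0.05 in edgeR and grey points did not; EHD2 at -2.06 and FYN at 2.65 are the ends of the range.

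Clathrin-coated pits are the other main endocytic route, and their 26 listed genes were read in the same way. Of 24 tested, 9 were called higher and 12 lower, beside 39.4% and 37.7% of all tested genes, with a median log2 change of -0.10 against 0.02 over all of them. The heavy chain CLTC went from 383 ± 9.52 to 310 ± 6.27 CPM and the light chain CLTA from 101 ± 1.87 to 80.1 ± 3.99 CPM (SD, n = 4 each). The other light chain, CLTB, went from 94.8 ± 5.82 to 102 ± 4.66 CPM. It was called higher (log2 change 0.1, edgeR adjusted p 0.0363), though its groups overlapped. The median of the 50 nearest tested genes was 0.67 for CLTB, above its own change. For CLTA that median was -0.38, beside a log2 change of -0.33, and for CLTC it was 0.15, beside -0.31. With the regional offset 23 of the 24 listed genes were called, 9 higher and 14 lower. The largest rises were in the cargo adaptor gene DAB2 (10.3 ± 0.9 to 41.3 ± 1.01 CPM, log2 change 2.00) and in HIP1 (24.7 ± 1.62 to 73.7 ± 4.39 CPM, log2 change 1.58). The largest falls were in SH3GL1, which encodes an endophilin (log2 change -1.06), and EPN3, which encodes an epsin (log2 change -0.99).

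Caveolin and cavin genes are high in cell types other than luminal epithelium, so markers of those cells were read in the same libraries. For each list, the genes with a row in the count table were summed. The 9 fibroblast markers summed to 6.04 to 7.69 CPM in control and 11.3 to 12.9 CPM in knockdown, with COL1A2, DCN, PDGFRA, FAP and POSTN at 3 or fewer counts in every library. COL3A1 went from 0.0222 to 4.32 CPM and PDGFRB from 0.41 to 2.83 CPM, whereas COL1A1 went from 5.38 to 4.33 CPM and THY1 was at 0.609 and 0.586 CPM. The 5 smooth muscle markers summed to 4.4 to 5.04 CPM in control and 8.36 to 9.52 CPM in knockdown, and the 6 basal or myoepithelial markers to 11.1 to 13.5 and 15.3 to 17.7 CPM. Within the basal list TP63 went from 0.147 to 7.86 CPM, whereas ACTA2 went from 1.33 to 0.0674 CPM and MYLK from 8.4 to 4.86 CPM. The 8 endothelial markers summed to 21.2 to 22.7 CPM in control and 20.2 to 22.7 CPM in knockdown, and the 4 adipocyte markers to 3.66 to 4.22 CPM in control and 0.972 to 1.73 CPM in knockdown. The 5 leukocyte markers summed to 5.68 to 7.41 CPM in control and 1.48 to 2.59 CPM in knockdown, with PTPRC at 3 or fewer counts in every library. The fibroblast, smooth muscle and basal sums were higher in knockdown, as CAV1 and CAVIN1 were. The adipocyte and leukocyte sums were lower, and the endothelial sums overlapped between the groups. The fibroblast, basal, endothelial and leukocyte lists each held genes called in both directions. Of the endothelial markers, CDH5 went from 16.1 to 20.1 CPM and VWF from 5.22 to 0.845 CPM. The part of these lists in the changes of CAV1 and CAVIN1 was not tested. In bulk RNA, a change in the number of cells that express a marker and a change in its RNA per cell cannot be told apart.

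Genes with the most similar pattern were found by the Euclidean distance between log2 CPM profiles over the 8 libraries, each centred on its own mean, among the 12420 tested genes that averaged 50 or more counts. The nearest to CAV1 were PIM2, ZNF358 and HPS1 (distances of 0.0979, 0.122 and 0.129), and the nearest to CAV2 were NXPE3, USP34 and LTN1 (0.177, 0.214 and 0.217). For CAVIN1 they were ZNF470, MAPK8IP2 and FECH (0.175, 0.176 and 0.177). EHD2 had the closest match, JUNB at 0.0677, which went from 72.2 ± 2.47 to 17.4 ± 0.699 CPM (SD, n = 4 each), followed by ADGRE5 at 0.1 and ELF3 at 0.146. The distances describe 2 groups of libraries, so a gene with a like fold change is near by construction.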

How the data were processed

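The authors deposited a table of whole-number counts, 1 row per versioned Ensembl gene with its symbol, for 4 control and 4 knockdown SKBR3 libraries. FastQC, Salmon 1.9, DESeq2 (given as 3.16) and hg38 are named in the submitters' processing notes without roles; if Salmon made the counts, they are rounded estimates. The annotation, and whether counting used strand, are not given in the sources used here. The table held 30434 genes with at least 2 counts each.

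Counts were analysed with edgeR 4.0.16 in R 4.3.3. The filter was filterByExpr (minimum 10 counts, total 15), which removed 14004 genes. Scaling was by TMM (factors 0.965 to 1.04), the test was glmQLFit with robust estimation and glmQLFTest, and Benjamini-Hochberg adjustment covered all tested genes (threshold 0.05, prior count 0.125). SEs come from log2 CPM with 0.5 added to counts; single genes and ratios were also tested over all 70 divisions of the libraries. Positions and lengths are GENCODE 29 on GRCh38, matched by unversioned identifier; the authors' release may differ. On simulated counts with a spread common to all genes, 200 genes with enough counts were changed, each by at least 2-fold. Among 15238 genes, 199 of these 200 were called with the right sign, with 9 false calls. Changes as small as that of CAV1, and a transcriptome of which most genes differ, were not simulated.

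Members and lists were chosen with earlier results of these data known. Named genes are the members, FOXA1, the extremes of the clathrin list and the 3 nearest patterns. They also include partner, kinase and turnover genes changed at least 2-fold or most abundant. The others named (the remaining partner, kinase and turnover genes, clathrin chains and flanking genes) were added after their values were seen. Alternatives used DESeq2 1.42.0, limma 3.58.1 (voom), other scalings, filters and thresholds, a replicate block, a regional offset and leaving out each library.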

Additional observations from a re-analysis of the deposited data

How the results depend on the processing

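Of 20 alternative fits, CAVIN1 (log2 fold change 1.71 to 1.94) and EHD2 (-2.12 to -1.97) kept their direction and their call in all 20. CAV1 (0.337 to 0.458) kept both in all but the test against a 2-fold change, which left it at 0.37 and not called and by its construction calls only larger changes. The same test called 3863 genes in all (12675 at the 0.05 threshold), 0 of the caveola partners, 2 of the kinase and turnover genes and 4 of the clathrin genes. CAV2 was past the threshold in none of the 20; leaving out each library gave -0.00202 to 0.164, the lowest without control replicate 3. With the regional offset 3 kinase and turnover genes were called, YES1 was at -0.0721 and VCP at 0.0731; the cause was not tested. With the replicate number as a block, 12453 genes were called, CAV1 was at 0.37 (adjusted p of 8.02e-06 by edgeR) and no call of a caveolin, cavin or EHD2 gene changed. Deviations of same-numbered libraries correlated at 0.0877, 0.168, -0.0355 and 0.0661 over 12420 genes. Those of differently numbered libraries correlated at between -0.119 and 0.074. These values do not settle whether the numbers pair the libraries. The neighbour medians depended on their number: with 5 on each side they were 0.69 for CAV1 and -1.04 for CAVIN1, and with 25 they were 0.01 and -0.26. Depth limits CAVIN2 and CAVIN3, for which a change under the floor was not detectable.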
